A study of Saccharomyces cerevisiae with 136 samples.

Results

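The genes of the translation elongation factors of budding yeast were followed across the ages of single mother cells. The set was fixed by name and holds 9 of the genes of Saccharomyces cerevisiae, namely EFB1, TEF1, TEF2, TEF4, CAM1, EFT1, EFT2, YEF3 and HYP2. No measured value was a criterion for choosing them, but earlier results of these data were known. Of these, 8 were among the 5997 genes with values, while HYP2 and its paralog ANB1 were not analysed here.

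Each cell was picked by hand from a solid agar plate with SD medium, lysed in its own tube together with ERCC spike-in RNA (synthetic RNA added in a fixed amount), and sequenced as its own Smart-seq2 library, a full-length cDNA protocol without molecular identifiers. All cells were wild type (WT). The strain is BY4742 in the labels' characteristics and in the study's methods, and BY4741 in the sample titles. Values were available for 125 of 136 cells, namely 37 cells of the 2-h group, 43 of the 16-h group and 45 of the 36-h group, with hours counted from birth. For each cell the authors recorded the generation, which is the number of divisions completed, and a slow-dividing (S) or fast-dividing (F) subgroup, which here divides an age group at its mean generation. There were 17 slow (16-h/S) and 26 fast (16-h/F) cells at 16 h, and 18 slow (36-h/S) and 27 fast (36-h/F) cells at 36 h. All 2-h cells were at generation 1, and generation ran from 5 to 8 in 16-h/S, from 9 to 12 in 16-h/F, from 8 to 17 in 36-h/S and from 18 to 22 in 36-h/F.

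The labels name no separate cultures, so each age group counted as 1 sample. No p value was computed, every SD given is a spread among cells, and time of isolation cannot be told apart from anything else that differed between the collections. A cell had between 40883 and 833501 reads (median 263709), and the group medians were 270573 for 2-h, 262919 for 16-h and 252159 for 36-h cells. At this depth 62.9% of all values were 0. Markers of the alpha mating type (MF(ALPHA)1, MF(ALPHA)2, STE3 and SAG1) had reads in 20% to 52% of cells. The a-type markers STE2 and BAR1, the 2 of 5 listed that were measured, had reads in 0.8% and 7.2%. Genes of daughter cells and cell separation (7 listed, 7 measured) had a summed level from 0 over a median of 0 to 620.1 normalized counts in 2-h cells, from 0 over 45.3 to 2584 in 16-h cells and from 0 over 16.4 to 10816 in 36-h cells, and their part in the results was not tested.

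During translation, eEF1A, the product of the TEF1 and TEF2 genes, carries each aminoacyl-tRNA to the ribosome with GTP. The eEF1B complex then exchanges the GDP left on it, with EFB1 encoding the catalytic alpha subunit and TEF4 and CAM1 encoding alternative gamma subunits. EFT1 and EFT2 encode eEF2, the translocase that moves the ribosome by a codon and that carries the diphthamide modification. YEF3 encodes eEF3, an ATPase that fungal ribosomes need in addition, and HYP2 encodes eIF5A, which helps peptide bonds form at difficult sequences. Most of these proteins are among the abundant proteins of a dividing yeast cell.

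The paralogs of eEF1A and of eEF2 are close to identical in sequence, which bears on every value given for a single copy. TEF1 (YPR080W, chrXVI:700594-701970) and TEF2 (YBR118W, chrII:477671-479047) differed at 2 of 1377 coding bases, T762C and T834C, and encode the same 458 residues. EFT1 (YOR133W, chrXV:575098-577626) and EFT2 (YDR385W, chrIV:1243230-1245758) differed at 4 of 2529 coding bases, A447G, C882T, C2145T and C2364T, and encode the same 842 residues. Positions count from the A of the start codon, the first letter is the base of TEF1 or EFT1, and the last letter the base of TEF2 or EFT2. The coding bases around the first difference of each pair are shown because only a read that covers such a base, or the flanks of the gene, can be placed on 1 copy. They are from the RefSeq sequence of the R64 genome, plus strand, with 25 bases on each side and the differing base in capitals.

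TEF1, chrXVI:701330-701380: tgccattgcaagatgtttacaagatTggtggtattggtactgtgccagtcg

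TEF2, chrII:478407-478457: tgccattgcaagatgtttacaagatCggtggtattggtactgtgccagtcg

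EFT1, chrXV:575519-575569: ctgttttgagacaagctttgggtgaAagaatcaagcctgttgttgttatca

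EFT2, chrIV:1243651-1243701: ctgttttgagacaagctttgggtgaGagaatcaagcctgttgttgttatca

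Of all 50-base stretches of the coding sequence, 7.53% were unique in the genome for TEF1 and for TEF2, and 8.06% for EFT1 and for EFT2. The longest run without a difference was 761 bases in the TEF pair and 1262 bases in the EFT pair. The study's sources do not state how reads that match both copies were counted, so the sum of a pair is the firmer quantity. In 36-h cells the share of TEF2 in the pair's reads ran from 8.0% to 94.0%. An even division of shared reads between the copies would draw such shares toward 50%. Shared reads may therefore have been left out, in which case the sum lacks them, but this was not tested. Every 50-base stretch of EFB1 (YAL003W, chrI:142174-143160), TEF4 (YKL081W, chrXI:282891-284455), CAM1 (YPL048W, chrXVI:464401-465648) and YEF3 (YLR249W, chrXII:636780-639914) was unique. EFB1 and TEF4 have 1 intron each, which holds the small nucleolar RNA gene SNR18 in EFB1 and SNR38 in TEF4. The other members have no intron, and no annotated gene overlapped a coding exon of a member.

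The window of 250 bases before to 50 after the start codon was searched on both strands for ACCCANNCA, a core of the site of Rap1, an activator of many ribosomal protein genes. None of the 8 members held it, against 3.00% of all 6001 genes. In a window of 500 bases before the start, chosen after that result, 4 of 8 members held it, against 5.98% of all 6000. The matches stand in capitals below, with the position of their first base relative to the start codon. In TEF4 the match is on the opposite strand. A match describes letters only.

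TEF1, position -332, chrXVI:700242-700290: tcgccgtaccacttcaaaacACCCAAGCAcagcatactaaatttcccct

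TEF2, position -435, chrII:477216-477264: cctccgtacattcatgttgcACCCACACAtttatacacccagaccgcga

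TEF4, position -389, chrXI:282482-282530: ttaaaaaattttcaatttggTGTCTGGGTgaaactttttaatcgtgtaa

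YEF3, position -289, chrXII:636471-636519: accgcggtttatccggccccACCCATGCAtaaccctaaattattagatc

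To ask how the elongation factor genes behaved during aging, their values were first compared between the age groups. Values are log2 normalized counts, that is log2 of the size-factor-scaled read count plus 1, unless stated otherwise. Of the 8 members, 7 had a lower mean at 36 h than at 2 h, and CAM1 was the exception. The differences of mean log2 were largest for EFT2, YEF3 and TEF4.

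The eEF1A genes had the highest levels of the set. Per kilobase of coding sequence, TEF2 averaged 1058 ± 243 normalized counts and TEF1 833 ± 167 in 2-h cells (SD among cells, n = 37). YEF3 followed with 412 ± 142, TEF4 with 410 ± 206 and EFB1 with 372 ± 186, whose ranges overlapped, and CAM1 with 94.1 ± 82.1, EFT2 with 90.4 ± 46.8 and EFT1 with 75.6 ± 45.8 were lowest and overlapped too. Values of the TEF and EFT pairs are divided by the whole coding length, and would be too low if reads shared by both copies were discarded, so their place in this order is uncertain. At 36 h the same scale read 750 ± 338 for TEF2, 426 ± 210 for TEF1, 261 ± 153 for EFB1, 213 ± 176 for YEF3, 198 ± 163 for TEF4, 122.6 ± 107.5 for CAM1, 36.9 ± 33.6 for EFT2 and 36.5 ± 25.9 for EFT1. TEF2 and TEF1 had the highest values in both age groups.

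TEF1 had a lowest, median and highest value of 9.11, 10.19 and 10.70 at 2 h, of 7.61, 9.59 and 10.34 at 16 h, and of 6.08, 9.17 and 10.21 at 36 h. The groups overlapped, but 21 of 45 cells at 36 h lay below the lowest 2-h cell. The mean was 8.94 ± 1.01 at 36 h, against 10.13 ± 0.32 at 2 h, a difference of -1.19. For TEF2 the lowest, median and highest values were 9.51, 10.47 and 11.16 at 2 h, 8.12, 10.01 and 13.06 at 16 h, and 6.40, 10.00 and 11.40 at 36 h. Its mean was 9.83 ± 0.84 at 36 h, against 10.47 ± 0.34 at 2 h, a difference of -0.64, and 10 of 45 cells lay below every 2-h cell. The summed TEF1 and TEF2 level, which does not depend on the copy that shared reads were given to but would lack them had they been discarded, averaged 10.55 ± 0.62 at 36 h, against 11.32 ± 0.28 at 2 h, a difference of -0.77 and a ratio of mean normalized counts of 0.622. Both eEF1A genes had reads in all 125 cells.

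Among the subunits of eEF1B, EFB1 had a lowest, median and highest value of 6.35, 7.73 and 9.02 at 2 h, of 0.98, 7.23 and 9.10 at 16 h, and of 0, 7.32 and 8.44 at 36 h. Its mean was 6.88 ± 1.58 at 36 h, against 7.68 ± 0.76 at 2 h, which is a difference of -0.79 between groups that overlapped over most of their range. TEF4 ran from 5.64 over a median of 8.95 to 10.17 at 2 h, from 0 over 8.69 to 9.60 at 16 h, and from 0 over 7.83 to 9.52 at 36 h. Its mean was 6.73 ± 2.78 at 36 h, against 8.76 ± 0.94 at 2 h, a difference of -2.03. Its ratio of mean normalized counts was 0.483, a smaller change than that of the log2 means, and 5 of 45 cells at 36 h had no TEF4 reads. CAM1 went the other way, with a mean of 6.29 ± 2.41 at 36 h, against 6.07 ± 1.97 at 2 h, with a median of 7.12 at 36 h, against 6.59 at 2 h. Its difference of 0.21 was small beside its SD, and it was below 0, at -0.13, when every cell was scaled to the same sum, and -0.33 when scaled to the genes other than the members and the ribosomal proteins.

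Of all members, the eEF2 gene EFT2 differed most in mean log2. It ran from 5.12 over a median of 7.76 to 9.09 at 2 h, from 0 over 7.30 to 8.43 at 16 h, and from 0 over 6.41 to 8.69 at 36 h. The mean was 5.30 ± 2.66 at 36 h, against 7.61 ± 0.89 at 2 h, a difference of -2.31. Reads were found in 38 of 45 cells at 36 h (84.4%, exact 95% interval 70.5% to 93.5%, counting error only), against 37 of 37 at 2 h. EFT1 had a lowest, median and highest value of 0, 6.30 and 7.86 at 36 h, against 3.37, 7.48 and 9.24 at 2 h, and a difference of means of -1.45. The sum of both copies averaged 7.01 ± 1.51 at 36 h, against 8.54 ± 0.78 at 2 h, a difference of -1.53 and a ratio of mean normalized counts of 0.442. This sum does not depend on how reads were divided between the copies, but would lack shared reads had they been discarded.

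YEF3 had values from 8.94 over a median of 10.31 to 11.13 at 2 h, from 8.03 over 9.71 to 11.56 at 16 h, and from 0 over 8.86 to 11.22 at 36 h. At 36 h, 23 of 45 cells lay below the lowest 2-h cell while the highest 36-h cell exceeded all 2-h cells, so the 36-h cells spread beyond the 2-h cells on both sides. Its mean was 8.04 ± 3.27 at 36 h, against 10.24 ± 0.55 at 2 h, a difference of -2.20. The ratio of mean normalized counts was 0.517, and 5 of 45 cells at 36 h had no YEF3 reads.

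**Figure D1:**
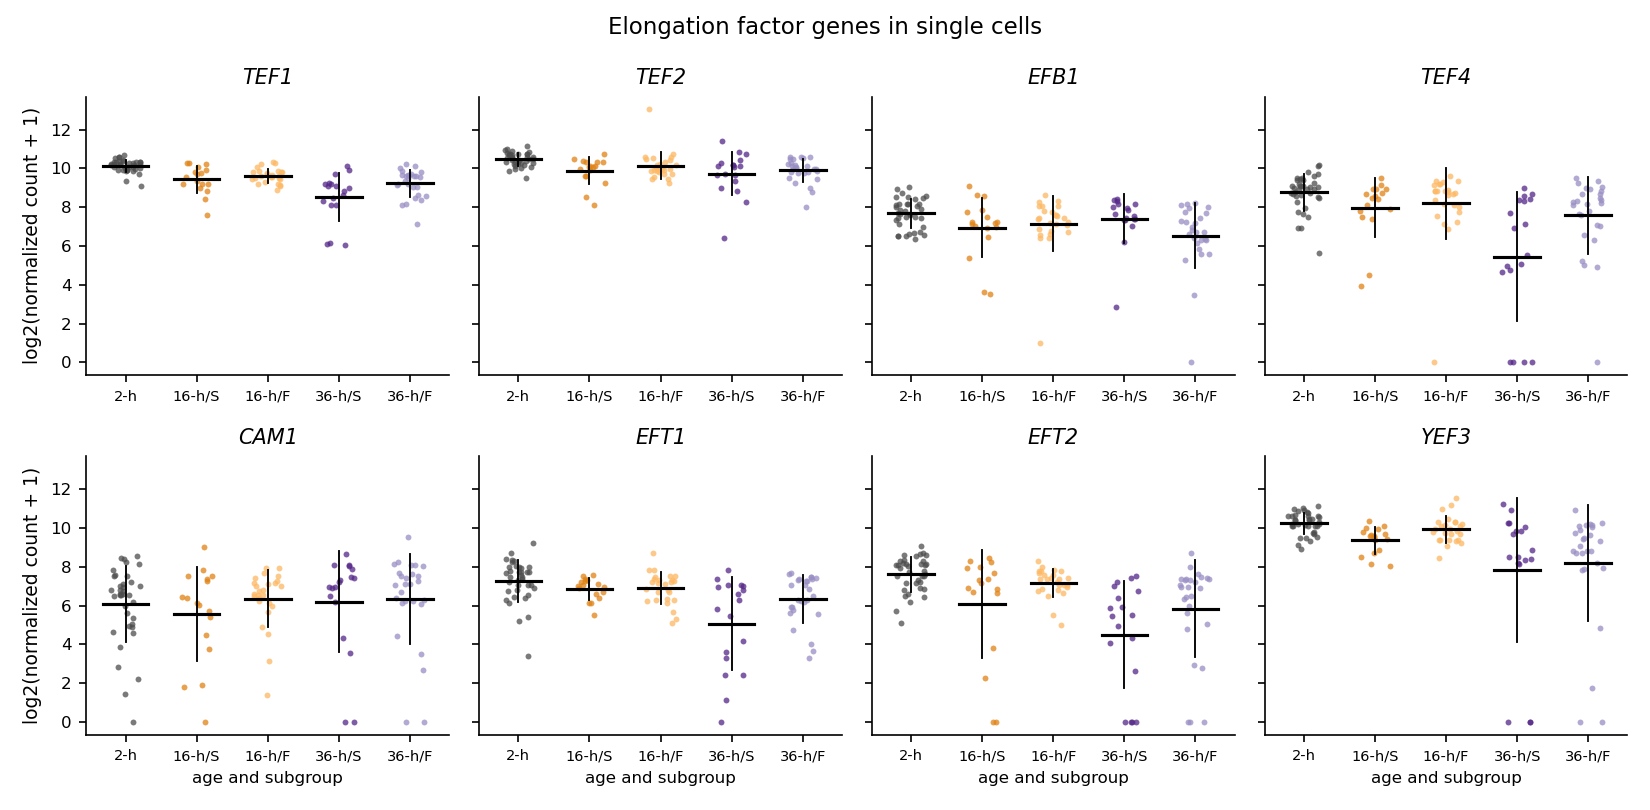
Log2(normalized count + 1) of the 8 measured elongation factor genes (y axis) in each of 125 cells, by age and subgroup (x axis). Points are cells, horizontal bars are means and vertical bars span 1 SD among cells; TEF1 and TEF2 stay near the top in all groups, while EFB1, TEF4, CAM1, EFT1, EFT2 and YEF3 have cells at 0 among the 36-h groups.

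A difference of mean log2 of at least 1 (2-fold) was counted as a call, and the background was the 1531 genes detected in 50% or more of the 125 cells. These include the 8 members and 134 ribosomal protein genes. At 36 h against 2 h, 5 of 8 members were lower by at least 1 (EFT2, YEF3, TEF4, EFT1 and TEF1), while 24.2% of the background genes were lower and 26.1% higher by that much (50.2% in either direction). All 8 members had reads in over 90% of cells, and among genes read in at least 90% of cells 46.6% were lower and 12.1% higher. The median difference of the members was -1.32, against 0.06 for the background. By the ratio of mean normalized counts only 3 members (EFT2, TEF4 and EFT1) passed 2-fold, with TEF1 and YEF3 just short of it. At 36 h against 16 h, 4 of 8 members were lower by at least 1 (YEF3, EFT2, TEF4 and EFT1), against 16.7% of the background (32.8% in either direction), and the member median was -0.83. Among genes read in at least 90% of cells the share that was lower was again larger, as given in the closing section. None of the 4 members passed 2-fold by medians over cells or by the ratio of means.

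At 16 h against 2 h, 0 of 8 members passed the call, where 9.21% of the background genes were lower and 14.6% higher by at least 1 (23.8% in either direction). All 8 members had a lower mean at 16 h, with differences from -0.86 (EFT2) to -0.03 (CAM1) and a median of -0.56, but this direction turned when reads were divided by the ERCC reads of the same cell, where 7 of 8 were higher and the median was 0.16. With every cell scaled to the same sum, and after thinning to 40000 reads, 7 of 8 were lower. With the ERCC scaling the median of the background was also higher, at 0.58 in place of 0.03. Relative to the background median the members stood at -0.59 with the deposited size factors and at -0.42 with the ERCC scaling. The median share of ERCC reads was 0.240 at 16 h and 0.387 at 2 h. At 36 h against 2 h the ERCC scaling gave a member median of -1.44 and 5 members lower by at least 1. Scaling to the same sum moved the background median there to -0.15 and the member median to -1.69, with 7 members lower by at least 1.

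**Figure D2:**
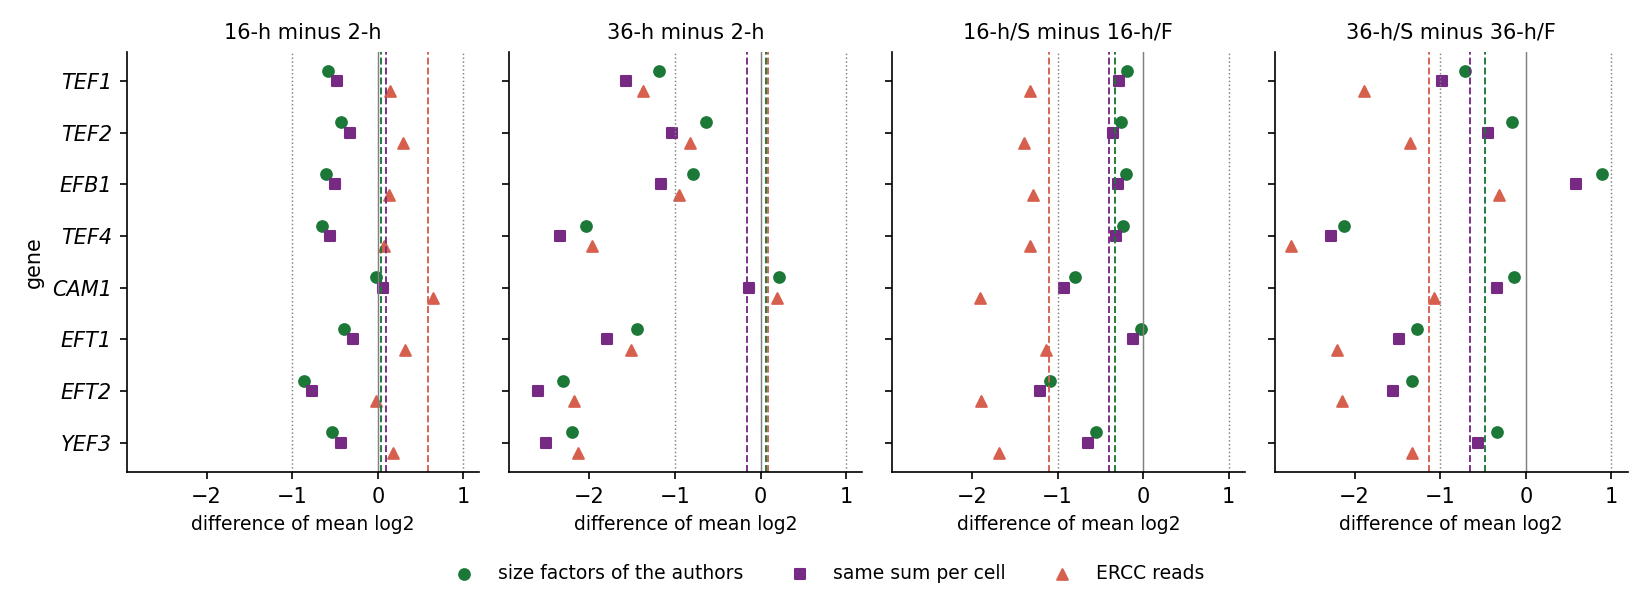
Difference of mean log2 values (x axis) of each gene (y axis) in 4 comparisons, for 3 ways of scaling cells. Dashed lines are the medians of the 1531 background genes with the same scaling and dotted lines mark differences of 1 in size; at 16 h against 2 h the ERCC scaling moves genes and background to the right together, and at 36 h against 2 h the member medians lie between -1.69 and -1.32.

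To add the members up in a quantity with a true zero, the share of a cell's reads that fell on the 8 genes was taken. The elongation factors took 2.38 ± 0.46% of the reads of a 2-h cell, 1.94 ± 0.84% of a 16-h cell and 1.13 ± 0.52% of a 36-h cell. The lowest, median and highest shares were 1.31%, 2.38% and 3.47% at 2 h, 0.477%, 1.85% and 6.20% at 16 h, and 0.143%, 1.099% and 2.32% at 36 h. At 36 h, 28 of 45 cells lay below the lowest 2-h cell, and a random 36-h cell exceeded a random 2-h cell with probability 0.040. The contrast was weaker for the sum of normalized counts, where 15 of 45 cells lay below the lowest 2-h cell and the probability was 0.077. The ratio of the 36-h to the 2-h mean was 0.586 on that scale and 0.477 by share. Thinning every cell to 40000 reads left the mean shares at 2.38%, 1.94% and 1.13%.

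The ribosomal protein genes, measured in the same way, took 20.3 ± 2.6% of the reads in 2-h cells, 16.6 ± 4.1% in 16-h cells and 8.56 ± 4.18% in 36-h cells. Both sets thus took a smaller share in older cells. With ribosomal protein reads left out of the denominator, their share was still 1.26 ± 0.62% at 36 h, against 2.99 ± 0.60% at 2 h. Across cells the shares of both sets had a Pearson correlation of 0.18 at 2 h (n = 37), 0.34 at 16 h (n = 43) and 0.81 at 36 h (n = 45). These cells share their denominators, and at 36 h the elongation factor share also went with the log10 of the reads (0.48), the number of genes detected (0.61) and the ERCC share of the cell (-0.47), whose part in it was not tested.

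**Figure D3:**
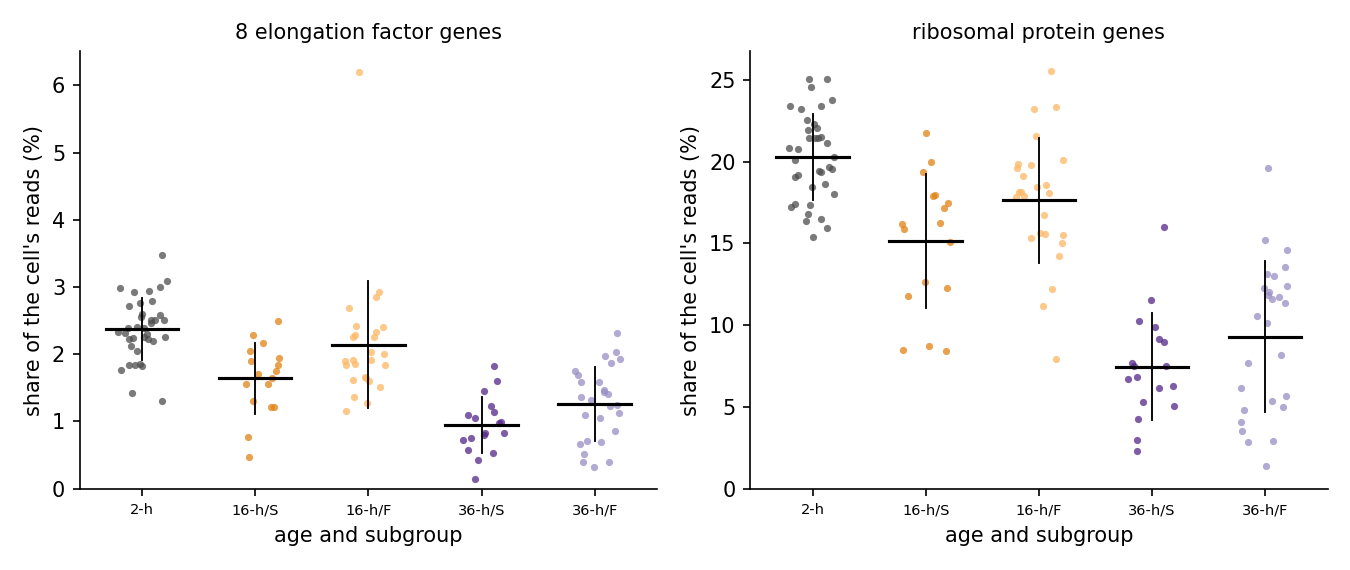
Share of a cell's reads (y axis, %) on the 8 elongation factor genes and on the ribosomal protein genes in each of 125 cells by age and subgroup (x axis); bars are means and 1 SD among cells. Both shares are lowest in the 36-h groups, and 1 cell of 16-h/F stands at 6.20% for the elongation factors.

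The cell with 6.20% belonged to 16-h/F, and the next highest share at 16 h was 2.92%. Of its 129466 reads, 5771 were counted on TEF2, which is 4.46%, or 8516 normalized counts, where no other 16-h cell exceeded 1737. Its TEF1 count was 420 reads, and its other members lay within the range of the remaining 16-h cells. Without it the 16-h difference of TEF2 from 2 h was -0.50 in place of -0.43.

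The share of TEF2 in the TEF1 and TEF2 reads was then followed, since the same protein is made from both. Summed over cells it came to 56.1% in 2-h, 59.3% in 16-h and 61.7% in 36-h cells. Per cell it averaged 55.7 ± 5.9% at 2 h, 57.8 ± 8.9% at 16 h and 63.4 ± 15.1% at 36 h, with ranges of 41.97% to 71.4%, 44.5% to 93.2% and 8.0% to 94.0%. The means differed by less than the SD at 36 h, and the spread among cells was wider there. TEF2 exceeded TEF1 in 32 of 37 cells at 2 h, 36 of 43 at 16 h and 39 of 45 at 36 h. The share was 67.7 ± 20.1% in 36-h/S and 60.6 ± 10.0% in 36-h/F, where the median cell had 710.5 reads on the pair in 36-h/S and 2216 in 36-h/F.

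EFT2 took 57.0% of the EFT1 and EFT2 reads of 2-h cells, 54.7% in 16-h cells and 53.1% in 36-h cells. Per cell the share averaged 55.3 ± 16.4% in 2-h, 51.6 ± 19.5% in 16-h and 45.2 ± 28.8% in 36-h cells. At 36 h, 7 cells had reads on EFT1 only and 1 on EFT2 only, while at 2 h every cell had both. The median cell had 168 reads on the pair at 36 h, against 454 at 2 h, and the part of this depth in the spread was not tested. The correlation between the copies over cells of log2 values (Pearson) of EFT1 with EFT2 stood at 0.43 in 2-h, 0.14 in 16-h and 0.31 in 36-h cells, and that of TEF1 with TEF2 at 0.43, 0.45 and 0.18.

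**Figure D4:**
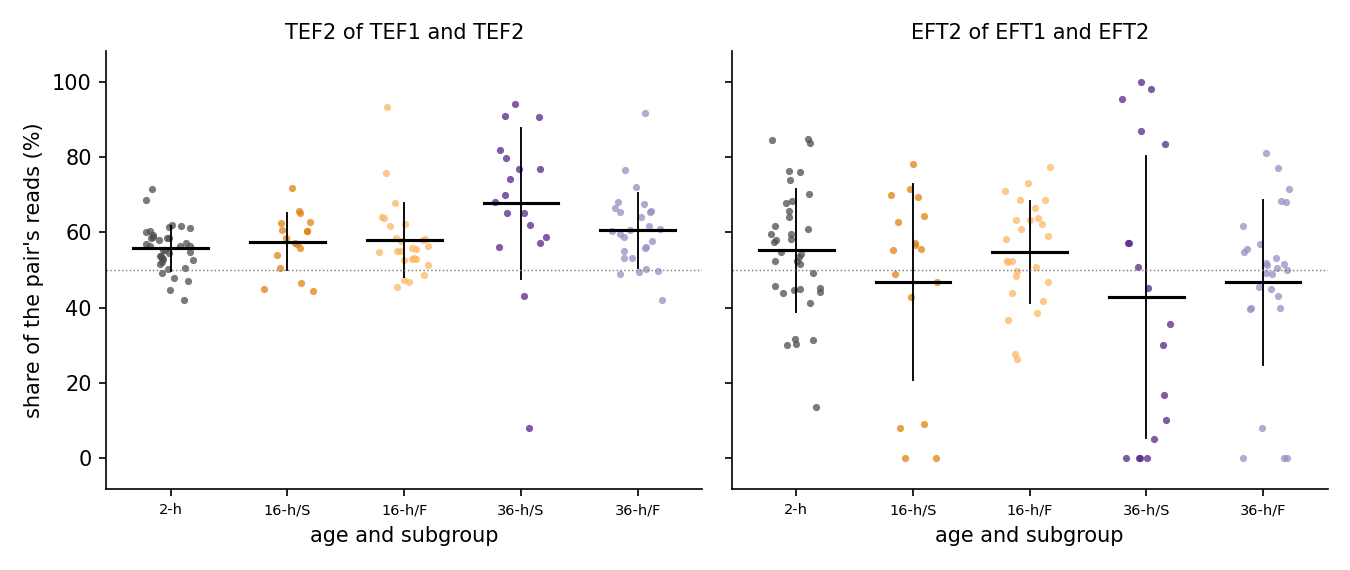
Share of the reads of a paralog pair that were counted on TEF2 or on EFT2 (y axis, %) in each of 125 cells by age and subgroup (x axis); bars are means and 1 SD among cells, and the dotted line is at 50%. The spread among cells is widest in 36-h/S for both pairs.

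Within eEF1, the subunit genes were set against the summed eEF1A genes per kilobase. The mean level of EFB1 was 19.7% of the eEF1A level in 2-h, 19.5% in 16-h and 22.2% in 36-h cells. TEF4 stood at 21.7%, 20.6% and 16.8% at these ages, and CAM1 at 4.98%, 5.99% and 10.4%. CAM1 thus had the largest relative shift of the subunits. Counted as a part of both gamma subunit genes, CAM1 made up 38.2% of the mean CAM1 and TEF4 level at 36 h, 22.5% at 16 h and 18.7% at 2 h. Per cell this share averaged 43.05 ± 31.4% at 36 h, against 20.4 ± 19.1% at 2 h, and cells from 0 to 100% occurred at 36 h. The 36-h value covers the 43 of 45 cells with reads on either gene. A cell with CAM1 but no TEF4 reads counts as 100%. At 36 h, cells without TEF4 reads had a median of 80704 reads, against 271665 in the others, and the part of depth in this share was not tested. The ratios of means weight cells by their size factors, while the per-cell share does not depend on scaling. The eEF1A values rest on a pair with shared sequence. If reads shared by both copies were discarded, the percentages of the eEF1A level are too high, so they cannot be read as ratios of subunits.

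Slow-dividing and fast-dividing cells of the same time point were compared next. At 36 h, EFB1 had a higher mean log2 value in S while the other 7 members had lower ones. EFB1 had a lowest, median and highest value of 2.83, 7.59 and 8.44 in 36-h/S, against 0, 6.73 and 8.23 in 36-h/F. The difference of means was 0.89 (7.42 ± 1.27 in 36-h/S, 6.53 ± 1.69 in 36-h/F), the ratio of mean normalized counts was 1.57, and a random 36-h/S cell exceeded a random 36-h/F cell with probability 0.74. This direction turned with the ERCC scaling, where the difference was -0.32. Over all background genes 91.9% had a difference at or below that of EFB1.

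TEF4 had a median of 6.23 in 36-h/S, against 8.20 in 36-h/F, and means of 5.45 ± 3.33 in 36-h/S and 7.58 ± 1.99 in 36-h/F. It had no reads in 4 of 18 cells of 36-h/S and in 1 of 27 of 36-h/F. EFT2 averaged 4.51 ± 2.78 in 36-h/S and 5.83 ± 2.50 in 36-h/F, and EFT1 5.08 ± 2.39 in 36-h/S and 6.34 ± 1.24 in 36-h/F. For these 3 genes the subgroups overlapped over most of their range. Thus 3 of 8 members (TEF4, EFT2 and EFT1) were lower by at least 1 in 36-h/S, where 29% of the background genes were lower and 6.66% higher by that much (35.7% in either direction). The member median of -0.52 was close to the background median of -0.47, and so it was by medians over cells (-0.41 against -0.45). It lay further below the background as the log2 ratio of mean normalized counts (-0.28 against 0.18), with a pseudocount of 10 (-0.42 against -0.14) and with ERCC scaling (-1.62 against -1.13). When cells whose ERCC share exceeded 0.5 were dropped, the number of members lower by at least 1 was 1. Median reads per cell were 186022 in 36-h/S and 325464 in 36-h/F, and the median ERCC share was 0.416 in 36-h/S and 0.269 in 36-h/F, whose part in these differences was not tested.

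TEF1 averaged 8.52 ± 1.24 in 36-h/S and 9.23 ± 0.72 in 36-h/F, and TEF2 9.73 ± 1.12 in 36-h/S and 9.90 ± 0.60 in 36-h/F. For YEF3 the means were 7.84 ± 3.73 in 36-h/S and 8.18 ± 2.99 in 36-h/F, while the ratio of mean normalized counts pointed the other way for YEF3 (1.13) and TEF2 (1.03). CAM1 averaged 6.20 ± 2.59 in 36-h/S and 6.34 ± 2.34 in 36-h/F. None of these 4 genes differed by more than its SD in either subgroup. The summed share was 0.942 ± 0.418% in 36-h/S and 1.26 ± 0.55% in 36-h/F, a ratio of means of 0.747. As a sum of normalized counts the subgroups were closer, with 2896 ± 1082 in 36-h/S and 3127 ± 1077 in 36-h/F, a ratio of 0.926.

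At 16 h, 1 of 8 members, EFT2, was lower by at least 1 in S, where 18.2% of the background genes were lower and 4.44% higher (22.7% in either direction). EFT2 had a lowest, median and highest value of 0, 7.18 and 8.43 in 16-h/S, against 4.99, 7.35 and 8.31 in 16-h/F, with a difference of means of -1.08, and 2 of 17 cells of 16-h/S had no reads. When cells whose ERCC share exceeded 0.5 were dropped, the difference was 0.28. Means of the other members differed by -0.80 (CAM1) to -0.02 (EFT1), and the member median was -0.25, against -0.33 for the background. By medians over cells it was also above the background (-0.20 against -0.37). It was below the background as the log2 ratio of mean normalized counts (-0.11 against 0.02), with a pseudocount of 10 (-0.28 against -0.14) and with ERCC scaling (-1.35 against -1.11). YEF3 averaged 9.37 ± 0.69 in 16-h/S and 9.92 ± 0.68 in 16-h/F. The summed share was 1.64 ± 0.53% in 16-h/S and 2.14 ± 0.95% in 16-h/F, a difference of -0.50 percentage points. It was -0.34 without the cell of 6.20% and -0.13 when cells whose ERCC share exceeded 0.5 were dropped.

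Generation was recorded for every cell, so that the relation of each gene to the number of divisions could be described within a time point. The subgroups are a split of the same generations, so these values are not separate from the comparison of S with F. At 16 h the summed share had a Pearson correlation with generation of 0.41 (Spearman 0.28, n = 43), or 0.45 when the 2 cells most distant from the median generation were dropped. It was 0.075 in the 37 cells whose ERCC share did not exceed 0.5, and 0.31 without the cell of 6.20%. At 36 h it was 0.32 (Spearman 0.24, n = 45), 0.25 without the 2 farthest cells, and 0.30 in the 37 cells below the same ERCC limit.

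Among single genes at 36 h, EFT2 (0.43), EFT1 (0.43), TEF4 (0.39) and TEF1 (0.35) were higher in cells of more generations, YEF3 (0.17), TEF2 (0.07) and CAM1 (0.01) had values near 0, and EFB1 was lower (-0.26, Spearman -0.43). Without the 2 farthest cells EFT2 was at 0.25 and EFB1 at -0.25. In the 23 cells with at least 250000 reads, a limit chosen after the values had been seen, EFT2 was at 0.65, YEF3 at 0.56, EFT1 at 0.21, TEF4 at 0.21 and TEF2 at -0.70, so the values of these 5 genes depended on which cells were kept. The Spearman value of EFT1 over all 45 cells was 0.25. At 16 h the values ran from 0.05 (EFT1) to 0.34 (YEF3), but in the 37 cells whose ERCC share did not exceed 0.5 TEF2 (-0.28), EFB1 (-0.26), EFT2 (-0.067), TEF1 (-0.058) and TEF4 (-0.040) were below 0. The number of genes detected had correlations with generation of 0.47 (36 h) and 0.28 (16 h), reads per cell had 0.33 (36 h) and 0.04 (16 h), and their part in these relations was not tested.

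**Figure D5:**
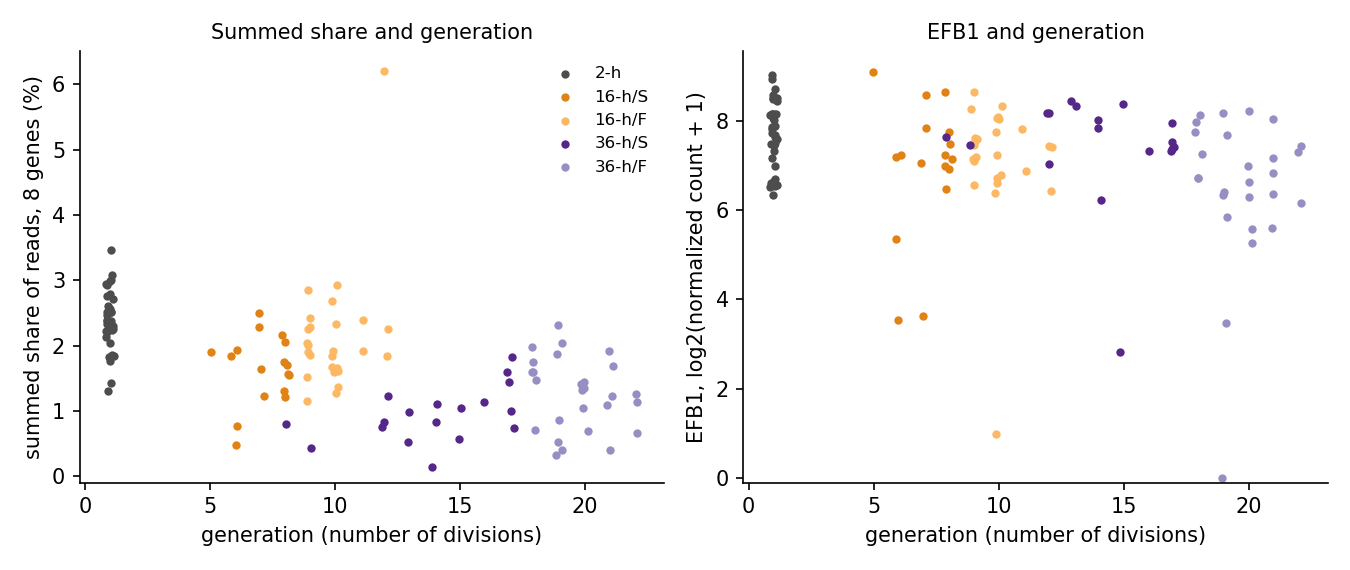
Summed share of reads on the 8 genes (y axis, %; left) and EFB1 log2(normalized count + 1) (y axis; right) against generation (x axis, number of divisions) for 125 cells. Points are cells coloured by age and subgroup; the shares of 36-h cells run from 0.143% to 2.32% over generations 8 to 22, and EFB1 is more often low among 36-h/F cells than among 36-h/S cells.

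Cells without reads on a member were most frequent at 36 h. At least 1 of the 8 members had no reads in 14 of 45 cells at 36 h, 4 of 43 at 16 h and 1 of 37 at 2 h. At 36 h, 7 cells lacked 1 member, 5 lacked 2 and 2 lacked 3. By gene, EFT2 had no reads in 7 cells, TEF4 and YEF3 in 5 each, CAM1 in 4, and EFB1 and EFT1 in 1 each. The 7 cells without EFT2 had a median of 80704 reads and the other 38 a median of 285930, and the 5 cells without TEF4 had a median ERCC share of 0.601 against 0.302 in the rest. Cells without YEF3 had a median of 113785 reads and from 49648 to 262217. In cells with YEF3 reads the median level was 9.40. The part of depth in these missing reads was not tested.

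Members varied together only in part. Over the 28 pairs of members, the median Pearson correlation of log2 values across cells was 0.27 in 2-h cells (25 pairs above 0), 0.28 in 16-h cells (26 above 0) and 0.20 in 36-h cells (23 above 0). The highest was 0.62 in 2-h cells (TEF1 with EFT1), 0.63 at 16 h (EFT2 with YEF3) and 0.58 at 36 h (TEF1 with YEF3). Over all 125 cells, each member was also set against the mean of the others. TEF1 had the highest correlation, 0.72, while EFB1 was at 0.29 and CAM1 at -0.02. All these values share library depth and size factors.

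Among the 1523 other background genes, those most like the mean of the members over 125 cells encode ribosomal proteins. They were RPS13 (Pearson correlation 0.77), RPS18B (0.76), RPL17B (0.75), RPL9A (0.74) and RPS8B (0.72). Of the 50 most similar genes, 44 were ribosomal protein genes, which made up 134 of the 1523. Within 2-h cells alone the same 5 genes were at 0.01 to 0.42, and within 36-h cells at 0.69 to 0.74. The lowest correlations were those of TAR1 (-0.73), YLR154C-G (-0.68), APC2 (-0.60), FIT2 (-0.60) and YLR154W-A (-0.59). TAR1, YLR154C-G and YLR154W-A lie in the ribosomal DNA, and FIT2 encodes a cell wall mannoprotein that retains siderophore iron.

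HEF3, which encodes a second form of eEF3 with 83.8% of residues in common with YEF3, was read in 9 of 45 36-h cells (20%, exact 95% interval 9.58% to 34.6%), in 2 of 43 16-h cells and in 0 of 37 2-h cells, which allows a share of up to 8.11% when 3 cells are taken as the limit for 0 (exact 95% upper limit 9.49%). It had 1 to 213 reads in the 9 cells, all of which also had YEF3 reads. NEW1, a related ATPase of translation, averaged 2.75 ± 3.01 at 36 h, against 5.74 ± 2.95 at 2 h, a difference of -3.00. The 16 genes that modify elongation factors were mostly too low to count, with 4 in the background, of which 1 was lower by at least 1 at 36 h against 2 h, a share close to the 24.2% of the background. That gene was DPH5 (-1.39), a methyltransferase of diphthamide synthesis on eEF2, and EFM5, a lysine methyltransferase of eEF1A, was at -0.04. The genes outside the background ran from LIA1 (-3.03), a hydroxylase of eIF5A, over DPH2 (-2.06), of diphthamide synthesis, to EFM3 (0.47). LIA1 had reads in 6 and DPH2 in 9 of 45 36-h cells, against 25 and 19 of 37 2-h cells.

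Other steps of translation were set beside the elongation factors at 36 h against 2 h, where 24.2% of the background was lower and 26.1% higher by at least 1. Of 24 initiation factor genes in the background, 10 were lower and 1 higher, with a median of -0.88. The extremes were TIF4631 (-4.23) and TIF4632 (1.38), which encode the alternative forms of the scaffold eIF4G. Of 18 cytosolic aminoacyl-tRNA synthetase genes 7 were lower and 0 higher, with a median of -0.64, from MES1 (-2.41, methionine) to ILS1 (0.38, isoleucine). Of 3 termination and recycling genes in the background, 2 were lower by at least 1, RLI1 (-2.63), which encodes the recycling ATPase, and SUP35 (-1.29), which encodes eRF3, while SUP45, which encodes eRF1, was at -0.92. Of 134 ribosomal protein genes 115 were lower and 0 higher, with a median of -1.64, from RPS14B (-3.49) to RPL15B (0.85). The background holds these genes as well, and they were 115 of its 370 genes that were lower by at least 1.

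The mitochondrial elongation factors went in the opposite direction to the cytosolic ones. TUF1, the mitochondrial counterpart of eEF1A, averaged 6.18 ± 2.53 at 36 h, against 3.36 ± 2.92 at 2 h, a difference of 2.83. It was read in 41 of 45 36-h cells, against 27 of 37 2-h cells. MEF1 (1.64) and MEF2 (0.99), which were in too few cells to enter the background, had higher means at 36 h as well. With every cell scaled to the same sum these differences were 2.51, 1.53 and 0.95, again opposite to most of the cytosolic genes. Between S and F at 36 h, TUF1 differed by 0.07.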

How the data were processed

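Paired-end reads had been mapped by the authors to the R64 genome with HISAT2 2.1.0, sorted with samtools 1.1 and counted per gene with featureCounts, whose settings are not given in the sources used here. The deposited values are log2 of the counts after division by a size factor of the cell, plus 1. Undoing the log2 gave whole reads in every cell (largest deviation 7.37e-05 of a read), and sums of the recovered reads gave the depth, from 40883 to 833501 per cell. Subgroup, generation and ERCC reads were taken from the authors' list of cells and are not in the deposited labels. Of the gene identifiers, 5693 matched the R64 annotation and 304 did not.

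Because each group counted as 1 sample, means, SDs among cells, differences of mean log2 values and correlations were given without p values. Intervals and limits for 0 cover counting error only. Named genes were the members, the extremes and the short lists among other translation genes, and the 5 genes most and least correlated with the members. The members and lists were chosen with earlier results of these data known. Promoter windows were cut from the genome sequence. Alternatives were same-sum scaling, scaling to genes other than members and ribosomal proteins, ERCC scaling, an ERCC share of at most 0.5, thinning to 40000 reads, ratios of means, medians, a pseudocount of 10, other filters and left-out cells. The recovery of reads and the difference of mean log2 values were tested on simulated counts, and the other procedures were not. Python 3.11.15, numpy, pandas and scipy were used.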

Additional observations from a re-analysis of the deposited data

Results flagged for a closer look

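EFB1, the gene of the catalytic subunit of eEF1B, went in opposite directions between slow-dividing and fast-dividing cells at the 2 later time points. The difference of mean log2 normalized counts was 0.89 for 36-h/S against 36-h/F and -0.21 for 16-h/S against 16-h/F. The 16-h difference was small beside the SDs, 1.53 in 16-h/S and 1.40 in 16-h/F. Background medians were -0.47 at 36 h and -0.33 at 16 h, so EFB1 lay above the background median at both time points. The change between the time points was not tested, since each subgroup counts as 1 sample, and the directions were not opposite under every setting. With the ERCC scaling the 36-h difference was -0.32, and the 16-h difference was 0.48 when cells whose ERCC share exceeded 0.5 were dropped, and 0.02 as the log2 ratio of mean normalized counts.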

How the results depend on the processing

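At 36 h against 2 h the members kept a median below 0 under every alternative run, from -1.90 to -0.96, and the number lower by at least 1 ran from 3 (ratio of means) to 7, with 5 as reported. At 36 h against 16 h that number was 0 by the ratio of means, 0 by medians and 7 with ERCC scaling, with 4 as reported. For 16-h/S against 16-h/F it was 0 by the ratio of means, by medians and with a pseudocount of 10, and 8 with ERCC scaling, with 1 as reported. For 36-h/S against 36-h/F it was 0 by the ratio of means, 1 with an ERCC share of at most 0.5, 1 with a pseudocount of 10 and 7 with ERCC scaling, with 3 as reported. The member median turned to 0.16 at 16 h against 2 h with ERCC scaling, and for 16-h/S against 16-h/F to 0.087 with an ERCC share of at most 0.5, while ERCC scaling gave -1.35. EFT2 turned to 0.28 for 16-h/S against 16-h/F, and its correlation with generation at 16 h to -0.067, with an ERCC share of at most 0.5. The correlation of the summed share with generation at 16 h was 0.075 with that limit and 0.14 in cells with at least 250000 reads. The ERCC scaling, the limit of 250000 reads and the removal of the cell with the highest share were chosen after seeing the data.

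The background depended on its filter. With genes read in at least 10% of cells, the percent lower was 4.87 and higher 9.12 at 16 h against 2 h, lower 10.9 at 36 h against 2 h, lower 7.10 at 36 h against 16 h and lower 17.03 for 36-h/S against 36-h/F. With at least 90% of cells it was 2.41 lower and 6.90 higher at 16 h against 2 h, 46.6 lower and 12.1 higher at 36 h against 2 h, 31.7 lower and 10 higher at 36 h against 16 h, 6.90 lower and 2.07 higher for 16-h/S against 16-h/F, and 19.3 lower and 2.76 higher for 36-h/S against 36-h/F. Scaled to the same sum, 25.1 were lower and 10.1 higher at 36 h against 16 h.

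No paired analysis was possible because the numbers in the titles only name cells and no result comes from a test. The part of depth in missing reads was not tested, and a cell without reads shows only that a gene was not detected.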
